A study of Mus musculus with 4 samples.

Results

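The interferon response genes described here are 33 mouse genes that type I or type II interferon is known to induce, measured in freshly isolated satellite cells, the resident stem cells of skeletal muscle. They were found by matching a fixed list of gene symbols to the gene names of the deposited tables, and all 33 were present among 55487 genes. The matching used the symbols alone. The tables hold 2 libraries from satellite cells labelled as Rbfox2 knockout (Rbfox2 cKO 1 and 2) and 2 from satellite cells labelled Control (Control 1 and 2). Rbfox2 encodes a splicing regulator that binds RNA, and the comparison asks how the transcripts of satellite cells differ when it is deleted.

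In the Rbfox2 cKO mice a floxed Rbfox2 allele was combined with Pax7CreERT2, a tamoxifen-activated Cre recombinase made where the satellite cell gene Pax7 is active, and with a Rosa26 EYFP reporter that marks recombined cells. Deletion followed tamoxifen injection. Which of these alleles the Control mice carried, and whether they received tamoxifen, is not given in the sources used here, nor are age and sex. The labels do not say that the 2 libraries of a group came from separate animals, so the p-values below measure a spread between libraries that may be technical.

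Interferons signal through cell-surface receptors and JAK kinases to STAT transcription factors. Type I interferon leads to a complex of STAT proteins and IRF9 that binds interferon-stimulated response elements in promoters, while type II interferon acts mainly through gamma-activated sites. The induced proteins sense viral RNA, block viral entry and translation, attack vacuoles that hold pathogens, attract lymphocytes and load peptides for antigen presentation. Many are also made at a low level without infection.

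Promoter sequence shows what many of these genes share at their start sites beyond their names. In the RefSeq promoter table (GRCm38.p6, 250 bases before to 50 after each start), 27 of the 33 genes were matched, with 31 promoters. The core of the interferon-stimulated response element was searched on both strands as GAAA, any 2 bases and GAAA, which the opposite strand reads as TTTC, any 2 bases and TTTC. It was found in 17 of the 31 promoters (54.8%), each of a different gene, against 3.44% of all 32851 promoters. The gamma-activated site was searched as TTCNNNGAA, which is its own reverse complement, and was found in 8 of the 31 promoters (25.8%), each of a different gene, against 8.30% of all promoters. In 2 of the 31 promoters a match of one motif overlapped a match of the other. Below are 100-base windows, each read 5′ to 3′ on the gene's own strand. Stat2, Ifit1, Ifit3 and Isg15 are shown because they hold the response element and lie towards the upper end of the fold changes described below. Rsad2 and Gbp7 are shown because they hold the same element and lie near 0, and Irf1 for its gamma-activated site. Tap1, Irf7 and Xaf1 had no match of either motif. Their log2 fold changes, Rbfox2 cKO over Control, were 0.90, 0.88 and 0.72, against 0.58 for Isg15. Capitals mark the response element in the first 6 windows and the gamma-activated site in the last. In Isg15 3 matches overlap.
Stat2, chr10:128270248-128270347, plus strand: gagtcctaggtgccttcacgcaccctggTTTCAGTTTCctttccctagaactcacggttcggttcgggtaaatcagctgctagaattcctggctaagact
Ifit1, chr19:34640749-34640848, plus strand: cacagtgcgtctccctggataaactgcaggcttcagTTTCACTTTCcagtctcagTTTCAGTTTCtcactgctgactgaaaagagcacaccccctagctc
Ifit3, chr19:34583344-34583443, plus strand: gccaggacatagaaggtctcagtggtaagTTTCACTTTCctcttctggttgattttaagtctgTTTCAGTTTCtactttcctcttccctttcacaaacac
Isg15, chr4:156200837-156200936, minus strand: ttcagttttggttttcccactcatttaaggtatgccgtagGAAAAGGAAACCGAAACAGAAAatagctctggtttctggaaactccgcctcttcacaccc
Rsad2, chr12:26456519-26456618, minus strand: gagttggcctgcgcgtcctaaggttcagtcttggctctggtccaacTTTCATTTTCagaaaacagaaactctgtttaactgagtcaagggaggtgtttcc
Gbp7, chr3:142530236-142530335, plus strand: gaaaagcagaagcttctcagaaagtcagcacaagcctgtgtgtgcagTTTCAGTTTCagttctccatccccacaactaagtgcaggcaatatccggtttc
Irf1, chr11:53769878-53769977, plus strand: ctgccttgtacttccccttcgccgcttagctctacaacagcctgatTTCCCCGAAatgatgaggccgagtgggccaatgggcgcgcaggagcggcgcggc

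Fold changes of genes with and without a match are set side by side here. The 17 genes with the response element core had a median log2 fold change of 0.30, Rbfox2 cKO over Control, and the 10 without it had a median of 0.51. The 8 genes with TTCNNNGAA had a median of 0.18, and the 19 without it 0.48. A match is a run of letters and not a measured binding site, and the groups were not tested against each other.

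The libraries held 68884091 estimated read counts in Rbfox2 cKO 1, the lowest total, and 101997422 in Rbfox2 cKO 2, the highest, with both Control libraries between them. Rbfox2 itself, the targeted gene, was at 40.0 and 15.2 CPM (read counts scaled to library size) in Rbfox2 cKO 1 and 2, against 131 and 56.0 CPM in Control 1 and 2. Its log2 fold change was -1.76 ± 0.35 (SE, n = 2 per group, edgeR's quasi-likelihood test, Benjamini-Hochberg adjusted p = 0.000252). No fit that dropped a library kept this call, and the log2 fold changes then ran from -2.61 to -1.04. In TPM (abundance scaled to transcript length and library size), the 9 satellite cell markers summed to 14439 and 15881 in Rbfox2 cKO. In Control they summed to 15771 and 14864 TPM, and all 9 were at 1 TPM or more in every library. Most of each sum was Sdc4, at 10958 and 11823 TPM in Rbfox2 cKO and 12058 and 11384 TPM in Control. The log2 fold changes of the 9 ran from -0.50 for Calcr to 0.84 for Pax7. Their median was -0.09, with 3 positive, and edgeR called none. Pax7 was at 38.9 and 49.3 CPM in Rbfox2 cKO, against 26.5 and 22.7 CPM in Control (edgeR unadjusted p = 0.0110, adjusted p = 0.556). Rbfox2 cKO 1 stood apart at low levels. The gene with the median level had 0.771 TPM there and 0.312 TPM in Rbfox2 cKO 2, against 0.392 and 0.437 TPM in Control 1 and 2. The median over 1436 olfactory and vomeronasal receptor genes, families used mainly in sensory neurons, moved the same way (0.689 and 0.247 TPM in Rbfox2 cKO, 0.347 and 0.417 TPM in Control).

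The satellite cell libraries of both groups held transcripts of most interferon response genes, at levels that spread over more than 3 orders of magnitude. Averaged over the 4 libraries, 3 genes were at 100 TPM or more, 12 lay between 10 and 100, 14 lay between 1 and 10, and 4 were under 1 TPM. TPM corrects for transcript length and so allows levels of different genes to be compared.

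Ifitm3, which encodes a membrane protein that blocks viral fusion in endosomes, was the most abundant. It was at 1939 and 1984 TPM in Rbfox2 cKO, against 1536 and 1417 TPM in Control. Ifi27, a small interferon-induced membrane protein, followed with 210 and 240 TPM in Rbfox2 cKO and 197 and 191 TPM in Control. For both genes the Rbfox2 cKO libraries lay above the Control libraries on this scale. Gbp2, a guanylate-binding GTPase that acts on pathogen vacuoles, was at 99.5 and 117 TPM in Rbfox2 cKO and 103 and 94.3 TPM in Control, and its groups overlapped.

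These orderings depended on the scale. In CPM scaled by the trimmed mean of M-values (TMM), which corrects for library composition but not for length, Ifitm3 was at 579 and 863 in Rbfox2 cKO and 621 and 565 in Control. Its log2 fold change was 0.28 ± 0.38 (SE), and Rbfox2 cKO 1 lay between the Control libraries. Of the 31-base stretches of Ifitm3 transcripts, 20.5% also occur in other genes. Summed with 5 genes that share sequence, among them Ifitm1 and Ifitm2, its log2 ratio was 0.27. Ifi27 was at 84.7 and 136 CPM in Rbfox2 cKO and 109 and 105 CPM in Control (log2 fold change 0.05 ± 0.35). Gbp2 was at 110 and 189 CPM in Rbfox2 cKO and 155 and 139 CPM in Control (log2 fold change 0.03 ± 0.35). For Ifi27 and Gbp2 one Rbfox2 cKO library lay above and the other below both Control libraries.

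The 4 genes under 1 TPM were Mx1, Oas3, Oas1a and Ifi44. All had a higher TPM in Rbfox2 cKO 1 than in Rbfox2 cKO 2, as the olfactory and vomeronasal receptor genes did. Mx1, a dynamin-like GTPase that blocks viral replication, was at 0.547 and 0.191 TPM in Rbfox2 cKO and 0.259 and 0.606 TPM in Control. Ifi44 was at 1.57 and 0.664 TPM in Rbfox2 cKO, against 0.533 and 0.847 TPM in Control. Their groups overlapped, and levels this low lie near the background of these libraries. When the 33 genes were ordered by their Control mean, 20 of the 32 neighbouring pairs had overlapping Control ranges.

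**Figure D1:**
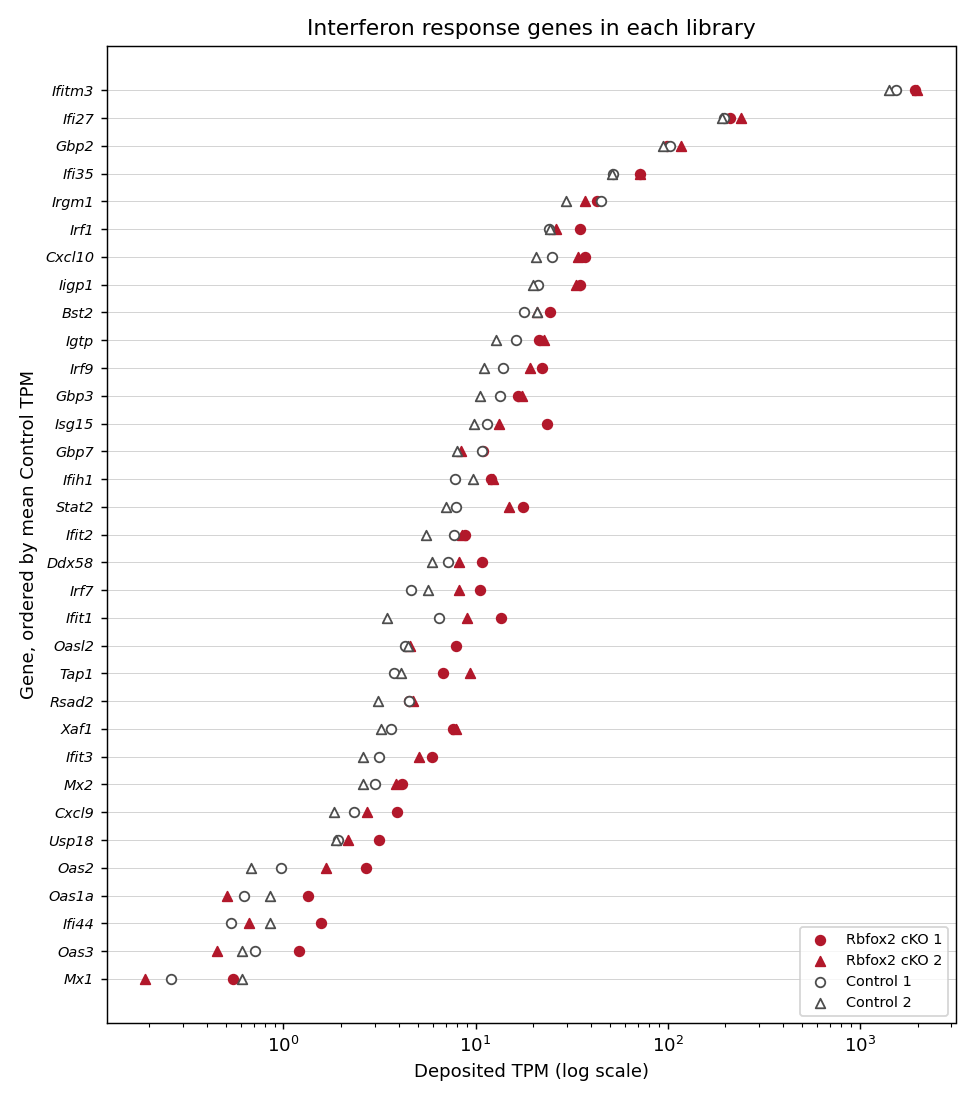
Deposited TPM on a log scale for each of the 33 genes in each of the 4 libraries, with 1 symbol per library and genes ordered by mean Control TPM. Ifitm3 stands alone between 1417 and 1984 TPM, and the 4 genes under 1 TPM on average are those whose 2 libraries of a group lie farthest apart on the log axis.

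Set against Control, the interferon response genes leaned towards higher levels in the Rbfox2 cKO libraries, by small amounts, and no single gene passed the test. The log2 fold change was above 0 for 30 of the 33 genes, against 55.0% of all 38143 genes tested. With DESeq2's size factors it was above 0 for 26 of the 33, against 48.9% of all genes tested. With library totals as the scaling it was above 0 for all 33, against 69.2%. With TMM scaling the median was 0.35, against 0.06 over all genes tested. The range ran from -0.19 for Mx1 to 1.02 for Stat2, and the 3 genes below 0 were Mx1, Gbp7 and Irgm1. Mx1 shares 8.67% of its 31-base stretches with other genes. Summed with Mx2 the log2 ratio was 0.33, but most of that sum was Mx2, whose own log2 fold change was 0.40. All 33 genes passed the filter on low counts.

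None of the 33 genes reached an adjusted p under 0.05 in edgeR's quasi-likelihood test, where 0.551% of all genes tested did (0.364% higher and the remainder lower in Rbfox2 cKO). DESeq2 also called none of the 33 (0.169% of all genes), and limma on log2(TPM + 1) called none of the 29 that passed its filter, where 0.308% of all 17210 genes tested were called. An unadjusted p under 0.05 was reached by 7 genes in edgeR, each with a positive fold change, against 3.32% of all genes tested with a p under 0.05 and a positive fold change. With 2 libraries in each group, no exact permutation test of a single gene can reach 0.05.

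Without a test, the libraries can be set side by side. In CPM both Rbfox2 cKO libraries lay above both Control libraries for 18 of the 33 genes, against 18.0% of all genes tested. They lay below for none, against 13.3% of all genes tested, and the groups overlapped for the other 15. In TPM both Rbfox2 cKO libraries lay above for 24 of the 33 genes (23.4% of all genes tested) and below for none (9.27%). Leaving out every gene that averaged under 1 TPM kept 29 of the 33 and 17210 of all genes. In TPM both then lay above for 24 of the 29, against 32.0% of the 17210, and below for none, against 15.7%. In CPM both then lay above for 18 of the 29, against 19.6%, and below for none, against 18.8%.

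**Figure D2:**
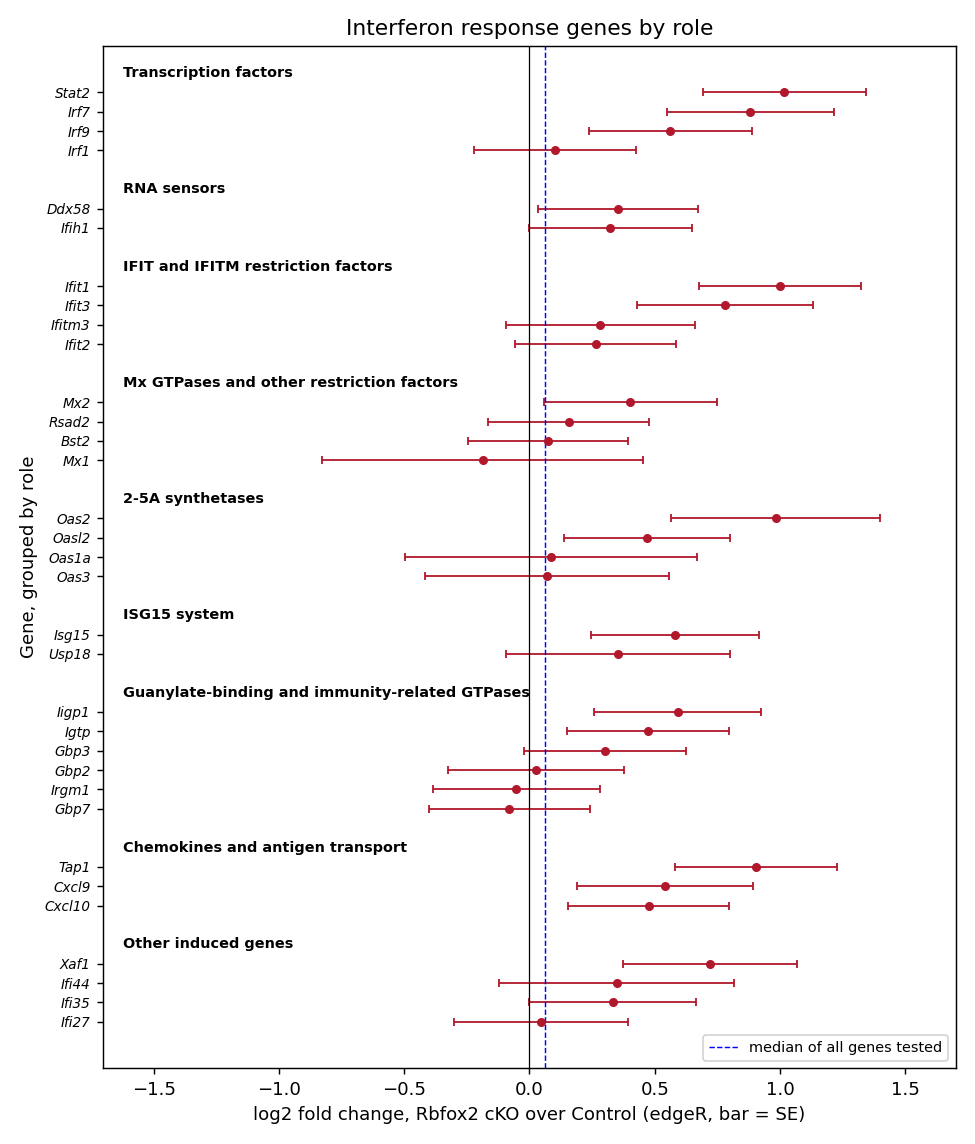
Log2 fold change of each of the 33 genes (points, bars are SE), Rbfox2 cKO over Control, grouped by role, with the median of all genes tested as a dashed line. Stat2 and Ifit1 lie near 1, 30 points lie above 0, and Mx1 is lowest at -0.19.

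The transcription factors had the highest median of the role groups, a log2 fold change of 0.72 over 4 genes. Of the 4, 3 had both Rbfox2 cKO libraries above both Control libraries in CPM, against 18.0% of all genes tested. Stat2 (ENSMUSG00000040033.16, chr10:128270559-128292849, plus strand, GRCm38) encodes a STAT of type I and type III interferon signalling. It was at 23.0 and 28.4 CPM in Rbfox2 cKO, against 13.6 and 11.8 CPM in Control. The groups did not overlap, and the gap between them was wider than the distance between libraries of 1 group. The log2 fold change was 1.02 ± 0.33 (SE, 95% confidence interval 0.38 to 1.65), and edgeR's quasi-likelihood test gave an unadjusted p of 0.00178 and an adjusted p of 0.194. In TPM, Stat2 was at 17.6 and 14.9 in Rbfox2 cKO and 7.89 and 7.03 in Control, and limma gave an adjusted p of 0.0728. Of the 31-base stretches of its transcripts, 1.89% also occur in other genes, and no annotated gene overlaps it.

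Irf7, the factor that amplifies type I interferon production, was at 8.03 and 8.51 CPM in Rbfox2 cKO and 4.55 and 4.43 CPM in Control. The libraries of each group lay close together and the groups were apart. Its log2 fold change was 0.88 ± 0.33 (SE, edgeR adjusted p = 0.476). Irf7 (chr7:141262706-141266481, minus strand, GRCm38) overlaps Phrf1 on the opposite strand, and whether the authors' counting used strand is not given in the sources used here. Of its 31-base stretches, read on either strand, 0.361% also occur in other genes. Their summed CPM, most of it Phrf1, was 76.3 and 87.3 in Rbfox2 cKO and 84.6 and 69.2 in Control, overlapping groups with a log2 ratio of 0.09. Irf9, the DNA-binding partner of STAT2, was at 24.7 and 30.9 CPM in Rbfox2 cKO and 21.4 and 16.2 CPM in Control. The groups were apart by less than the distance between the libraries of either one, and the log2 fold change was 0.56 ± 0.32 (SE). Irf9 overlaps Rnf31 on the same strand, and the log2 ratio of their summed CPM was 0.47. Irf1, a transcription factor that type II interferon induces, was at 23.1 and 28.1 CPM in Rbfox2 cKO and 24.1 and 23.7 CPM in Control, a log2 fold change of 0.10.

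The 4 IFIT and IFITM genes all had positive log2 fold changes, with a median of 0.53. IFIT proteins bind viral RNA and the translation machinery. Ifit1 (ENSMUSG00000034459.8, chr19:34640871-34650009, plus strand, GRCm38) was at 15.9 and 15.4 CPM in Rbfox2 cKO, against 10.2 and 5.43 CPM in Control. The 2 Rbfox2 cKO libraries were nearly equal and lay above both Control libraries, which themselves were apart by almost as much as the higher of them was from Rbfox2 cKO. Its log2 fold change was 1.00 ± 0.32 (SE, unadjusted p = 0.00202, edgeR adjusted p = 0.211). Ifit1 shares 10.8% of its 31-base stretches with other genes, and summed with its copies Ifit1bl1 and Ifit1bl2 the log2 ratio was 0.90.

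Ifit3, its neighbour on chromosome 19, was at 4.56 and 5.67 CPM in Rbfox2 cKO and 3.28 and 2.68 CPM in Control, with a log2 fold change of 0.78 ± 0.35 (SE, edgeR adjusted p = 0.839). Its 61.8% of 31-base stretches shared with Ifit3b make the split of reads between them uncertain, and the log2 ratio of the summed CPM of both was lower, at 0.51. Ifit2, the third neighbour, had a log2 fold change of 0.26 and its groups overlapped (14.8 and 20.7 CPM in Rbfox2 cKO, 17.2 and 12.4 CPM in Control).

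Among the other antiviral effectors, both Rbfox2 cKO libraries lay above both Control libraries in CPM for 2 of the 4 oligoadenylate synthetase genes. The same held for both genes of the ISG15 system, and for 18.0% of all genes tested. Oligoadenylate synthetases sense double-stranded RNA and activate RNase L. Oas2 was at 2.87 and 3.22 CPM in Rbfox2 cKO and 1.55 and 1.53 CPM in Control, a log2 fold change of 0.98 ± 0.42 (SE, edgeR adjusted p = 0.713). Its groups did not overlap, and the libraries of each group lay close together. Oasl2, an oligoadenylate synthetase-like protein, was at 7.22 and 7.29 CPM in Rbfox2 cKO and 5.18 and 5.30 CPM in Control, a log2 fold change of 0.47 with groups that did not overlap. Oas1a and Oas3, both under 1 TPM on average, had log2 fold changes of 0.08 and 0.07 and overlapping groups. Oas1a shares 68.8% of its 31-base stretches with other genes, nearly all with Oas1g, and summed with Oas1g its log2 ratio was -0.17.

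Isg15, the ubiquitin-like modifier, was at 7.31 and 5.97 CPM in Rbfox2 cKO and 4.83 and 4.05 CPM in Control (log2 fold change 0.58 ± 0.34, SE). It shares 13.1% of its 31-base stretches with other genes. Usp18, the protease that removes ISG15 and dampens receptor signalling, was at 1.93 and 2.08 CPM in Rbfox2 cKO and 1.63 and 1.52 CPM in Control, a log2 fold change of 0.35. The RNA sensors Ddx58, which encodes RIG-I, and Ifih1, which encodes MDA5, also lay above Control in both Rbfox2 cKO libraries, with log2 fold changes of 0.35 and 0.32. Ddx58 was at 9.53 and 11.4 CPM in Rbfox2 cKO and 8.37 and 8.02 CPM in Control. Ifih1 was at 22.3 and 30.5 CPM in Rbfox2 cKO and 20.6 and 21.6 CPM in Control, with Rbfox2 cKO 1 close to both Control libraries.

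The group of Mx GTPases, Rsad2 and Bst2 had a median log2 fold change of 0.12, near that of all genes tested. Mx2 was the only 1 of the 4 with both Rbfox2 cKO libraries above both Control libraries in CPM, against 18.0% of all genes tested. The groups of the others overlapped. Mx2 was at 4.27 and 5.47 CPM in Rbfox2 cKO and 4.05 and 3.32 CPM in Control, a log2 fold change of 0.40. The annotation (GENCODE M21) lists Mx2 as a polymorphic pseudogene. Rsad2, which encodes the antiviral enzyme viperin, was at 7.25 and 11.2 CPM in Rbfox2 cKO and 9.74 and 6.82 CPM in Control, a log2 fold change of 0.16. Bst2, which encodes tetherin, had a log2 fold change of 0.07.

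The guanylate-binding and immunity-related GTPases, which type II interferon induces strongly and which act on pathogen vacuoles, had a median log2 fold change of 0.16 over 6 genes. Iigp1 was the member that stood apart. It was at 44.4 and 62.8 CPM in Rbfox2 cKO, against 36.8 and 34.3 CPM in Control, a log2 fold change of 0.59 ± 0.33 (SE, edgeR adjusted p = 1.00). Both Rbfox2 cKO libraries lay above Control, and Rbfox2 cKO 1 was nearer to Control than to Rbfox2 cKO 2. In TPM the libraries within a group lay close together, at 35.2 and 33.3 in Rbfox2 cKO and 21.2 and 20.0 in Control (limma adjusted p = 0.0956). Igtp was at 18.7 and 28.8 CPM in Rbfox2 cKO and 19.1 and 15.0 CPM in Control, overlapping groups with a log2 fold change of 0.47. It shares 15.9% of its 31-base stretches with other genes, and summed with Irgm2 its log2 ratio was 0.63. Irgm1, a regulator of the other immunity-related GTPases, was at 42.6 and 51.9 CPM in Rbfox2 cKO and 59.3 and 38.7 CPM in Control, where the Control libraries enclosed both Rbfox2 cKO libraries. Gbp3 had a log2 fold change of 0.30, Irgm1 of -0.05 and Gbp7 of -0.08, all with overlapping groups. Summed with Gbp7, with which it shares sequence, Gbp3 had a log2 ratio of 0.13. Gbp7 shares 14.7% of its 31-base stretches with other genes.

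Chemokines and antigen transport had a median log2 fold change of 0.54. For all 3 genes both Rbfox2 cKO libraries lay above both Control libraries in CPM, against 18.0% of all genes tested. Tap1 (ENSMUSG00000037321.17, chr17:34187553-34197225, plus strand, GRCm38), a subunit of the pump that carries peptides to class I molecules, was at 8.73 and 16.1 CPM in Rbfox2 cKO and 6.56 and 6.71 CPM in Control. Most of its difference came from Rbfox2 cKO 2, which was well above Rbfox2 cKO 1. The log2 fold change was 0.90 ± 0.32 (SE, unadjusted p = 0.00517, edgeR adjusted p = 0.370). Psmb9 overlaps Tap1 on the opposite strand, and the log2 ratio of their summed CPM was 0.79.

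Cxcl10 and Cxcl9 encode ligands of the lymphocyte receptor CXCR3. Cxcl10 was at 18.4 and 25.6 CPM in Rbfox2 cKO and 17.5 and 14.1 CPM in Control, with Rbfox2 cKO 1 just above Control 1 and a log2 fold change of 0.48 ± 0.32 (SE). It overlaps Art3 on the opposite strand. Cxcl9 was at 4.54 and 4.74 CPM in Rbfox2 cKO and 3.73 and 2.64 CPM in Control, a log2 fold change of 0.54.

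Of the 4 remaining genes, Xaf1, an interferon-induced gene that promotes cell death, was at 4.90 and 6.05 CPM in Rbfox2 cKO and 3.50 and 3.14 CPM in Control. Its groups were apart, with a log2 fold change of 0.72 ± 0.35 (SE, edgeR adjusted p = 0.947). In TPM they were farther apart, at 7.65 and 7.91 in Rbfox2 cKO and 3.64 and 3.23 in Control (limma adjusted p = 0.0966). Ifi35 was at 40.8 and 59.5 CPM in Rbfox2 cKO and 40.2 and 39.5 CPM in Control, a log2 fold change of 0.33, with Rbfox2 cKO 1 barely above Control. Ifi44 had a log2 fold change of 0.35 and overlapping groups. An antisense gene, Gm11626, shares 12.8% of the 31-base stretches of Ifi35.

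The 2 Rbfox2 cKO libraries did not carry the difference equally, and their order turned with the scale. In CPM, Rbfox2 cKO 1 was lower than Rbfox2 cKO 2 for 27 of the 33 genes, while in TPM it was higher for 23. Relative to the Control mean in CPM, the median of the 33 genes was 0.22 (log2) in Rbfox2 cKO 1, where all genes tested had a median of 0.17, and 0.53 in Rbfox2 cKO 2, where all genes tested had -0.06. In TPM the medians of the 33 genes were 0.71 and 0.37, beside 0.60 and -0.17 over all genes tested. So over all genes tested the 33 genes stood above them by 0.05 in CPM and 0.11 in TPM in Rbfox2 cKO 1, and by 0.59 and 0.55 in Rbfox2 cKO 2.

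A floor at a Control mean of 5 CPM, chosen after seeing the data, brought the libraries closer. Among the 21 interferon response genes and 9734 genes above it, the interferon response genes stood above the rest by 0.38 in CPM and 0.37 in TPM in Rbfox2 cKO 1, and by 0.43 on both scales in Rbfox2 cKO 2. These are medians over genes within libraries and carry no test.

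**Figure D3:**
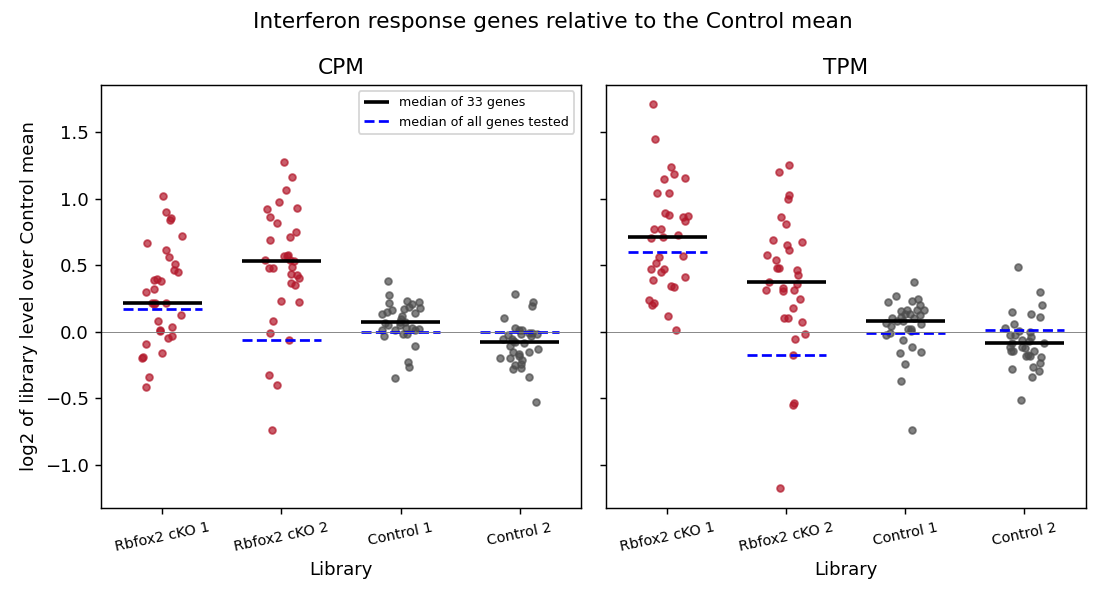
Log2 of each library's level over the Control mean for each of the 33 genes (points), in CPM and in TPM, with the median of the 33 genes as a solid line and that of all genes tested as a dashed line. In Rbfox2 cKO 1 the lines lie close together on both scales, and in Rbfox2 cKO 2 the solid line lies 0.59 (CPM) and 0.55 (TPM) above the dashed one.

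Calls appeared when Rbfox2 cKO 1 was left out. Without it, edgeR's quasi-likelihood test called 5 of the 33 genes, all higher in Rbfox2 cKO, where it called 2.26% of all genes tested, 1.53% higher. These were Stat2 (log2 fold change 1.17, adjusted p = 0.000883), Tap1 (1.29, adjusted p = 0.00140), Iigp1 (0.83, adjusted p = 0.00699), Ifitm3 (0.55, adjusted p = 0.0211) and Igtp (0.76, adjusted p = 0.0496). Without Rbfox2 cKO 2 none was called, where 5.39% of all genes tested were (0.597% higher), 22 of 33 log2 fold changes were positive, and the median of the 33 genes was 0.15, equal to the 0.15 of all genes tested. Without Control 1 none was called, where 0.121% of all genes tested were, and the median was 0.44. Without Control 2 none was called either, where 0.135% of all genes tested were, and the median was 0.29. Over all genes tested, 57.2% of log2 fold changes were positive in the fit without Rbfox2 cKO 2. In each of these fits 1 group has a single library, which is taken to vary as the libraries of the other group do.

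Among the 12 genes with the smallest p, Irf7, Oas2 and Isg15 varied least, each gene's counts taken alone. With each library left out in turn, the log2 fold change of Irf7 ran from 0.77 to 0.94, that of Oas2 from 0.83 to 1.07 and that of Isg15 from 0.44 to 0.70. Stat2 ran from 0.79 to 1.17, Ifit1 from 0.59 to 1.51 and Tap1 from 0.33 to 1.29.

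**Figure D4:**
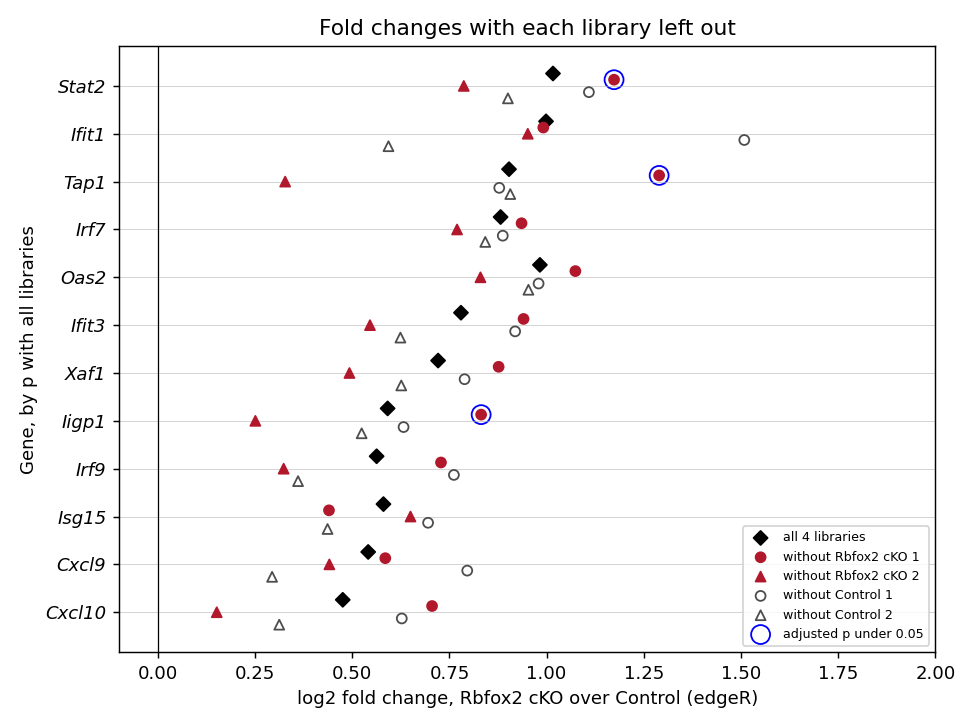
Log2 fold change, Rbfox2 cKO over Control, of the 12 genes with the smallest p in edgeR, with all libraries and with each library left out (symbols), and with a ring where the adjusted p was under 0.05. Each of the 12 genes stays above 0 in every fit, and the rings stand only at fits without Rbfox2 cKO 1.

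The rest of the pathway gave no called gene either. Of 125 further genes in 6 lists, 121 were tested, none was called by edgeR's quasi-likelihood test or DESeq2, and limma called none of the 99 that passed its filter. In edgeR 15 had an unadjusted p under 0.05, beside 4.83% of all genes tested in either direction. Interferon ligand transcripts were near the background: 7 of 11 genes passed the filter, and the 11 summed to 5.29 and 2.05 TPM in Rbfox2 cKO and 2.54 and 2.29 TPM in Control. Rbfox2 cKO 1 was the highest library, as it was for olfactory and vomeronasal receptor genes.

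The 6 receptor genes had a median log2 fold change of -0.03, with 2 positive. Ifnar1 and Ifnar2, the chains of the type I receptor, were at 43.1 and 56.4 CPM in Rbfox2 cKO against 41.5 and 46.6 CPM in Control, and at 77.9 and 105 CPM in Rbfox2 cKO against 99.6 and 90.1 CPM in Control. Both overlapped between groups. The 5 receptor kinases and other STATs had a median of 0.44, with 4 positive, and Jak1 and Stat3 had log2 fold changes of -0.14 and 0.22. The 15 brakes on signalling had a median of 0.03, with 8 positive, among them Socs3 (0.09), while Tnfaip3 had -0.38 and Ptpn2 -0.26.

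For 23 genes of nucleic acid sensing the median was 0.33 and 15 were positive. In CPM both Rbfox2 cKO libraries lay above both Control libraries for 11 of the 23, against 18.0% of all genes tested. Both lay below for 4, against 13.3%. Highest in mean CPM were Myd88, Traf6 and Tbk1, with log2 fold changes of 0.03, -0.48 and -0.08. A list of 65 other interferon-stimulated genes had a median of 0.30, with 50 positive. In CPM, 25 of the 65 had both Rbfox2 cKO libraries above both Control libraries and 3 had both below, against 18.0% and 13.3% of all genes tested. The 3 with the highest mean CPM were Ifitm2, Tapbp and Shisa5, with log2 fold changes of -0.19, 0.39 and 0.03.

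**Figure D5:**
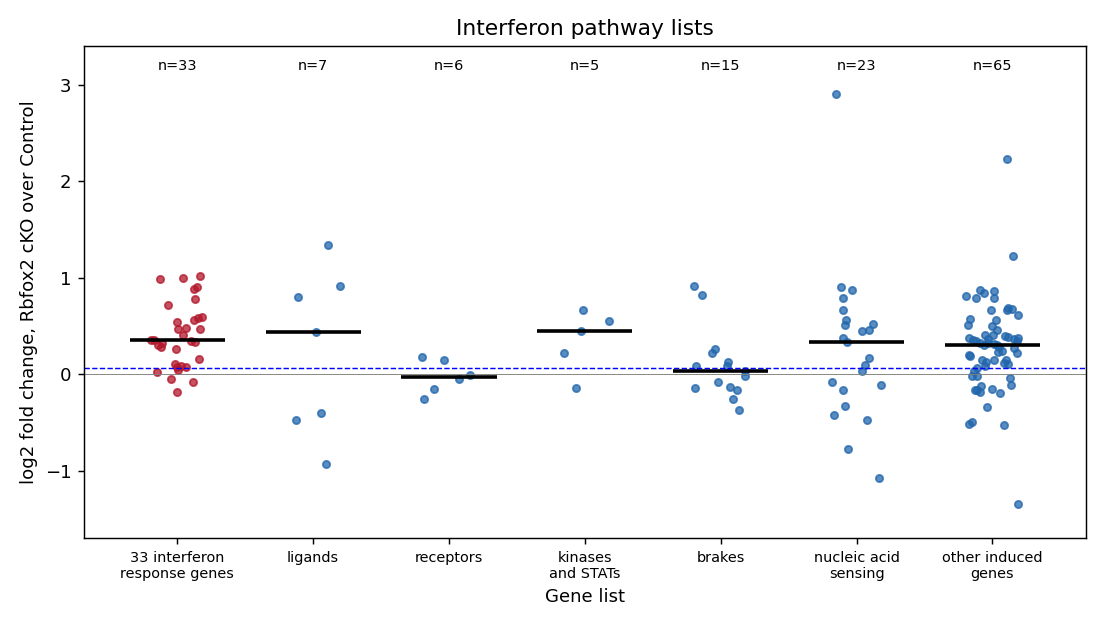
Log2 fold change, Rbfox2 cKO over Control, of each tested gene (points) in the 33-gene list and the 6 further pathway lists, with each list's median as a bar and the median of all genes tested as a dashed line. The 33 genes and the other interferon-stimulated genes have medians of 0.35 and 0.30, and receptors and brakes have medians of -0.03 and 0.03.

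Markers of other cell types also differed between the libraries. The 14 leukocyte markers summed to 100 and 56.7 TPM in Rbfox2 cKO and 44.0 and 61.7 TPM in Control. On this scale Rbfox2 cKO 1 was highest and Rbfox2 cKO 2 lay within the Control range. In CPM they summed to 54.6 and 45.4 in Rbfox2 cKO and 33.4 and 42.9 in Control, so that both Rbfox2 cKO libraries were higher. The median log2 fold change of the 14 markers was 0.43, beside 0.35 for the 33 interferon response genes. None of the 14 was called by edgeR's quasi-likelihood test, and 12 had positive log2 fold changes. An unadjusted p under 0.05 was reached by 2, in opposite directions: Itgam with a log2 fold change of -1.96 and Lyz2 with 0.73. Between 8 and 11 of the 14 were at 1 TPM or more in a library, and Nkg7 was listed at 0 in Control 2. Ptprc, which encodes the pan-leukocyte marker CD45, was at 2.92 and 1.06 TPM in Rbfox2 cKO and 1.19 and 2.03 TPM in Control. The 10 endothelial markers summed to 252 and 210 TPM in Rbfox2 cKO and 182 and 205 TPM in Control. The 10 fibroblast and mural markers summed to 658 and 565 TPM in Rbfox2 cKO and 553 and 593 TPM in Control. In CPM both Rbfox2 cKO libraries lay above both Control libraries for 5 of the 14 leukocyte markers and 5 of the 10 endothelial markers. The same held for 3 of the 10 fibroblast and mural markers and for 18.0% of all genes tested. They lay below for 1, 0 and 2 genes of these lists, against 13.3%. The 7 erythroid markers summed to 1800 and 1471 TPM in Rbfox2 cKO and 337 and 764 TPM in Control, and 5 of the 7 were called higher in edgeR, against 0.364% of all genes tested. In bulk libraries, a change in the number of cells of a type and a change in RNA per cell cannot be told apart, and the part of these cells in the interferon values was not tested.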

How the data were processed

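RNA-seq of freshly isolated satellite cells was analysed from tables that the authors deposited. Per the labels' protocols, 10 ng of RNA per sample was copied with the SMART-Seq protocol and made into libraries with an MGI kit. The authors deposited an estimated count table and a TPM table, made, per the submitters' processing notes, with HISAT2 2.1.0 and StringTie 1.3.6 on GRCm38. Annotation release, filters and use of strand were not stated. The estimated counts were whole numbers as deposited, and no column of values was left unmapped.

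Counts were tested with edgeR 4.0.16 (R 4.3.3; filterByExpr, TMM, robust quasi-likelihood test, Benjamini-Hochberg adjustment over all genes tested, threshold 0.05), Rbfox2 cKO over Control. DESeq2 1.42.0 was an alternative. The deposited TPM values were tested with limma 3.58.1 on log2(TPM + 1) where the mean TPM reached 1. The pseudocount makes fold changes of low genes smaller. The fits were tested on simulated data. Counting 31-base stretches shared between genes used GENCODE M21 transcripts, in which 55394 of 55487 deposited identifiers were matched. Replicates differed beyond sampling noise (chi-square per degree of freedom 83.5 in Rbfox2 cKO and 49.6 in Control), and the common biological coefficient of variation was 0.373, which limits the precision more than depth does.

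The 33 genes, the other lists and the tests were chosen with earlier results of these data known. Full values were given for the 12 genes with the smallest p and the 3 with the highest mean TPM, ranges or single values for the rest, and for other lists the called genes or the 3 with the highest mean CPM. Genes named beyond that rule were chosen after their values were seen. The values of 1 gene in the pathway lists are not reported here.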

Additional observations from a re-analysis of the deposited data

How the results depend on the processing

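With 2 libraries per group, the call of an interferon response gene depended on scaling and on single libraries. Scaling by library totals alone, which shifted the median of all genes tested from 0.06 to 0.25 (log2), gave 2 called genes, Stat2 (adjusted p = 0.00774) and Iigp1 (adjusted p = 0.0354), and 3 called genes in the other pathway lists (Tmem173, Gbp6 and Lgals3bp), all higher, where 0.469% of all genes tested were called higher. Relative to all genes tested the median of the 33 genes was 0.29 as reported, 0.30 with DESeq2's size factors and 0.26 with library totals. With limma on TPM and no filter, 4 of the 33 were called (Ifit1, Ifitm3, Stat2 and Iigp1), where 0.523% of all genes tested were called higher. Leaving out each library gave between 0 and 5 called genes in edgeR, between 0 and 3 in limma (Ifit1, Stat2 and Cxcl10 without Control 1, where 1.79% of all genes tested were called higher, and Stat2 without Control 2, where 2.67% were) and between 0 and 7 in the other pathway lists. There, Jak2, Stat3, Tmem173, Tlr7, Gbp6 and Lgals3bp were among the 7 called higher without Rbfox2 cKO 1 (1.53% of all genes tested), and without Rbfox2 cKO 2, 3 genes (Jak1, Ptpn2 and Traf6) were called lower, where 5.39% of all genes tested were called in either direction. Over all genes tested, edgeR called 210 as reported, 119 with DESeq2's size factors, 282 with library totals, 28 with no filter, 14 with at least 5 CPM in 2 libraries, 92 with DESeq2 and between 51 and 2267 when a library was left out. The 18 genes whose groups did not overlap in CPM were 24 in TPM. Same-numbered libraries share a number and part of a code in the labels, which do not call it a batch, and the deviations of Rbfox2 cKO 1 and Control 1 from their group means correlated at -0.12 across genes. With the replicate number as a block, none of the 33 was called and the count over all genes was 96. With the crossed pairing as a block, an alternative chosen after seeing the data, the counts were 0 and 243. Rbfox2 itself lost its call with library totals (log2 fold change -1.47), with no filter (-1.81) and with at least 5 CPM in 2 libraries (-1.52). Of the 10 alternatives on counts, fits without a library included, 3 kept the call. The main fit of limma on TPM did not call Rbfox2 (-1.16), and 2 of its 8 alternatives did. Small fold changes turned sign: Mx1 was 0.0551, Gbp7 0.0798 and Irgm1 0.0989 with library totals, Gbp7 was 0.0431 and Irgm1 0.0634 with at least 5 CPM in 2 libraries, Oas1a was -0.00917, Oas3 -0.0226, Gbp2 -0.0195 and Ifi27 -0.00141 with DESeq2's size factors, Oas1a was -0.00866, Oas3 -0.0220 and Gbp2 -0.00254 with DESeq2, and Gbp2 was -0.0241 with the replicate block. When a library was left out, 15 genes turned sign, with ranges of -0.0631 to 0.50 for Ifit2, -0.10 to 0.55 for Ifitm3, -0.11 to 0.25 for Irf1, -0.72 to 0.14 for Mx1, -0.39 to 0.38 for Oas1a, -0.31 to 0.31 for Oas3, -0.26 to 0.45 for Rsad2, -0.16 to 0.23 for Bst2, -0.48 to 0.38 for Gbp2, -0.0522 to 0.55 for Gbp3, -0.31 to 0.15 for Gbp7, -0.34 to 0.27 for Irgm1, -0.41 to 0.36 for Ifi27, -0.0352 to 0.59 for Ifi35 and -0.0495 to 0.67 for Ifi44. The cause of these changes was not tested.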
